A study of Sus scrofa with 3 samples.

Results

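The miR-143 and miR-145 cluster was followed in psoas major, a muscle of the loin, of growing pigs. Every mature arm with a porcine miR-143 or miR-145 name was taken, which gave 4 of the 276 porcine mature names listed at any age: ssc-miR-143-3p, ssc-miR-143-5p, ssc-miR-145-5p and ssc-miR-145-3p. All 4 were listed in each of the 3 small RNA libraries, in which 263, 268 and 265 porcine names were found at 63, 98 and 161 d. The pigs were castrated male hybrids of Landrace, Large White and Duroc, labelled as fattening pigs, and were grouped by age, with diets that changed with body weight. Total RNA of several pigs was pooled in equal amounts at each age, which left 1 library for each stage, and pigs of the same age were not compared.

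MicroRNAs (miRNAs) are short RNAs that are cut from a hairpin precursor and lower the translation or stability of mRNAs, which they find mainly through the seed, bases 2 to 8 of the mature sequence. A hairpin gives a 5p and a 3p arm, and usually 1 of them accumulates. In mammals miR-143 and miR-145 lie side by side and are made from a shared primary transcript. They are known as the miRNAs of smooth muscle cells and pericytes, the contractile cells of vessel walls, where serum response factor and myocardin drive their transcription and where ELK1 (miR-143) and KLF4 (miR-145) are among their targets. Skeletal muscle such as the psoas holds these cells in its blood vessels.

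The known mature sequences of the 4 arms, shown with the seed in capitals because the seed sets the target range, share no seed with each other.
ssc-miR-143-3p: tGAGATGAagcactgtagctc
ssc-miR-143-5p: gGTGCAGTgctgcatctctgg
ssc-miR-145-5p: gTCCAGTTttcccaggaatccctt
ssc-miR-145-3p: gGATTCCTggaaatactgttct
No other name of miR-143 or miR-145, of pig or of another species, was listed at any age. A predicted candidate with the seed of ssc-miR-143-3p was listed with 8, 20 and 10 reads at 63, 98 and 161 d. Another candidate, with the seed of ssc-miR-145-3p, had 2 reads at 161 d and was not listed earlier.

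The 2 hairpins are shown next, with the known mature sequences in capitals, to place the arms on their precursors.
ssc-mir-143: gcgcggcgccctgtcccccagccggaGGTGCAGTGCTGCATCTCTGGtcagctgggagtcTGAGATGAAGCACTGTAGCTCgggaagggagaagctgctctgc
ssc-mir-145: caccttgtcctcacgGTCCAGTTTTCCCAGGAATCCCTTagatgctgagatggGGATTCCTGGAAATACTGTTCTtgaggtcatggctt
The 103 bases of ssc-mir-143 were placed at 157344726 to 157344828 and the 89 bases of ssc-mir-145 at 157346127 to 157346215, both on the plus strand, with 1298 bases between them. The files named neither the chromosome nor the genome build of these positions. No other listed miRNA arm lay within 100000 bases. In the RefSeq annotation of Sscrofa11.1, used for gene order only, no gene had its start position between those of MIR143 and MIR145. In order of start position, the genes on either side were LOC100514340 and CSNK1A1 (casein kinase 1 alpha), and distances were not measured. MIR143 and MIR145 both lay within the annotated span of IL17B. The folding energy given in the files was -50.8 kcal/mol for ssc-mir-143 and -40.6 kcal/mol for ssc-mir-145, against a median of -40.1 kcal/mol over 231 hairpins. The G and C content was 65.0% and 49.4%, respectively, and these energies were not adjusted for it or for hairpin length. The MFEI, an index of folding energy adjusted for both, was 0.8 for ssc-mir-143 and 0.9 for ssc-mir-145.

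Library size, the sum of all reads in a file, was 1464699, 2418187 and 2242716 for 63, 98 and 161 d, and levels are given as reads per 1000000 of this sum (RPM). Intervals are at 95%, are exact and cover counting error only. A count of 3 reads, the smallest amount taken as detectable, were worth 2.05, 1.24 and 1.34 RPM. No test between ages was possible with 1 library per age, and no p-value is given. The myofibre markers fixed for the tissue were miR-1, miR-133a, miR-133b, miR-206, miR-208b and miR-499. With each name read at 1 hairpin they summed to 225286, 212933 and 237714 RPM, so that the libraries carried the miRNAs of striated muscle. These sums are too low, because ssc-miR-133a-3p was listed at 2 hairpins. Over both it had 633747, 874568 and 986145 reads at 63, 98 and 161 d. All levels below come from bulk tissue, and which cells held the miRNAs of the cluster was not tested. More cells that hold them and more miRNA per cell cannot be told apart.

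ssc-miR-143-3p was the dominant product of the cluster and was highest at 161 d, at close to 3 times its level at 63 d. ssc-miR-145-5p, the major arm of the other hairpin, was much less abundant and was lowest at 98 d. The ratio of ssc-miR-143-3p to ssc-miR-145-5p was larger at each later age. For both, the largest step between neighbouring ages lay between 98 and 161 d.

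ssc-miR-143-3p had 13059, 27691 and 59445 reads at 63, 98 and 161 d, or 8916 RPM (8764 to 9070), 11451 RPM (11317 to 11587) and 26506 RPM (26293 to 26720). With each name read at 1 hairpin, it was the 14th, 12th and 5th most abundant porcine name at these ages. Names listed at more than 1 hairpin could rank higher with their hairpins summed. The 161 d library stood far above the other two, and the 3 intervals did not overlap. The ratio of levels, later over earlier, was 1.28 (1.26 to 1.31) from 63 to 98 d, 2.31 (2.28 to 2.35) from 98 to 161 d and 2.97 (2.92 to 3.03) from 63 to 161 d.

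ssc-miR-145-5p had 680, 900 and 1543 reads, or 464 RPM (430 to 501), 372 RPM (348 to 397) and 688 RPM (654 to 723). It was the 72nd, 90th and 61st most abundant porcine name, again with each name read at 1 hairpin. The 98 d library was the lowest and the 161 d library the highest, again without overlap of the intervals. The ratio of levels was 0.80 (0.72 to 0.89) from 63 to 98 d, 1.85 (1.70 to 2.01) from 98 to 161 d and 1.48 (1.35 to 1.62) from 63 to 161 d.

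The minor arms were rare. ssc-miR-143-5p, the arm opposite the abundant one, had 19, 25 and 72 reads, or 13.0 RPM (7.81 to 20.3), 10.3 RPM (6.69 to 15.3) and 32.1 RPM (25.1 to 40.4). Its levels at 63 and 98 d overlapped in their intervals, with a ratio of 0.80 (0.42 to 1.53), and the 161 d level lay above both. The ratio of levels was 3.11 (1.95 to 5.11) from 98 to 161 d and 2.47 (1.48 to 4.35) from 63 to 161 d.

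ssc-miR-145-3p had 32, 97 and 106 reads, or 21.8 RPM (14.9 to 30.8), 40.1 RPM (32.5 to 48.9) and 47.3 RPM (38.7 to 57.2). The ratio of levels was 1.84 (1.22 to 2.83) from 63 to 98 d, 1.18 (0.89 to 1.57) between 98 and 161 d and 2.16 (1.44 to 3.32) from 63 to 161 d. The ratio was larger for the first step, from 63 to 98 d, with each scaling of the libraries. The gap between the steps depended on the scaling, and their intervals overlapped each time. With edgeR's TMM the ratio was 1.49 (0.99 to 2.30) for the first step and 1.45 (1.09 to 1.93) for the second, and with DESeq2's median of ratios it was 1.50 (0.99 to 2.31) and 1.46 (1.10 to 1.95). When copies of the representative read alone were counted, the ratios of this arm from 63 to 98 d and from 63 to 161 d were 2.92 and 3.98.

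**Figure D1:**
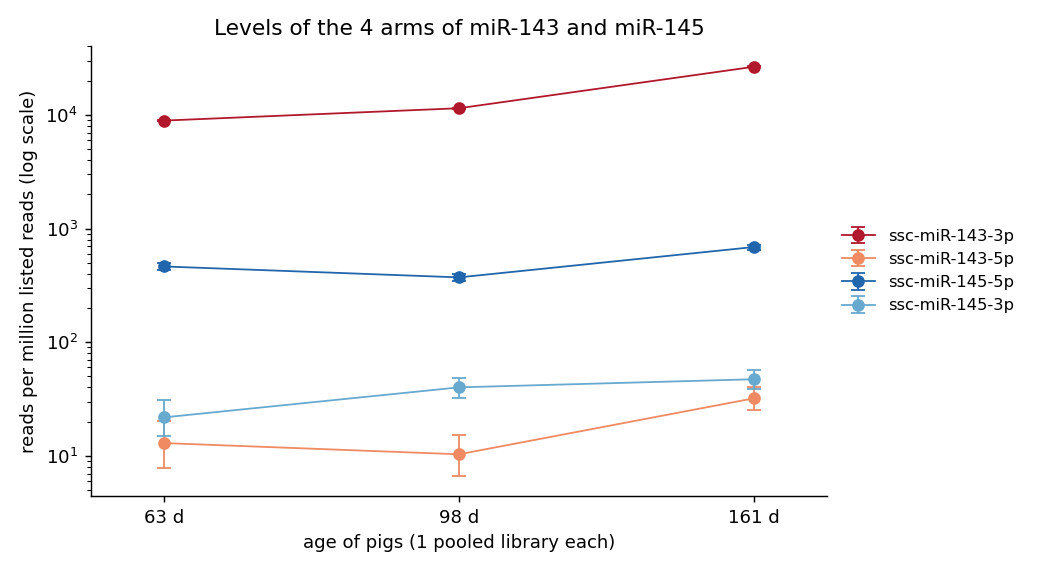
Levels of the 4 arms, in RPM on a log axis, in the pooled library of each age. Points are the levels, vertical bars the exact 95% Poisson intervals of the counts, and lines join the libraries of 1 arm. ssc-miR-143-3p lies at 8916 RPM or more, ssc-miR-145-5p between 372 and 688 RPM, and both minor arms at 47.3 RPM or less.

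A ratio of levels of at least 2 or at most 0.5 was used as the fold limit, and the same was counted over the 234 porcine names with a mean of at least 10 reads over the 3 libraries. All 4 arms passed this filter. Each name was read at 1 hairpin, and 4 names (ssc-miR-370, ssc-miR-382, ssc-miR-769-5p and ssc-miR-92b-3p) stood at 0 in 1 library in which they were listed at another hairpin, so that the counts of names past the limit include these zeros. With all hairpins of a name summed, 30 of 238 names were higher and 8 lower from 63 to 98 d, 6 and 26 between 98 and 161 d, and 18 and 25 from 63 to 161 d. From 63 to 98 d none of the 4 arms passed the fold limit, where 17.1% of all names did (12.8% higher and 4.27% lower at 98 d). From 98 to 161 d ssc-miR-143-3p and ssc-miR-143-5p were past it, both higher at 161 d, where 13.7% of all names were past the limit in either direction and 3.42% were higher and 10.3% lower. From 63 to 161 d ssc-miR-143-3p, ssc-miR-143-5p and ssc-miR-145-3p were past it, all higher at 161 d, beside 18.8% of all names in either direction, 8.12% higher and 10.7% lower.

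The middle of all porcine names moved as well. Their median ratio was 1.24 from 63 to 98 d, 0.81 from 98 to 161 d and 1.03 from 63 to 161 d. The ratio of ssc-miR-143-3p divided by this median was 1.04, 2.84 and 2.90 in the 3 pairs, and that of ssc-miR-145-5p was 0.65, 2.27 and 1.44. Relative to the other porcine names, ssc-miR-143-3p thus differed little from 63 to 98 d, and both were higher at 161 d than at 98 d. ssc-miR-143-3p had the 109th, 7th and 8th highest ratio of the 234 names in the 3 pairs, and ssc-miR-145-5p the 183rd, 11th and 52nd. With all hairpins summed these ranks were 110, 5 and 7, and 185, 8 and 52, of 238 names. Among the 74 names with a mean of at least 1000 reads, 1 had a higher ratio than ssc-miR-143-3p from 98 to 161 d and 2 had a higher ratio than ssc-miR-145-5p.

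Other scalings of the libraries kept the direction of both major arms and changed the size. From 63 to 98 d the ratio of ssc-miR-143-3p was 1.04 with edgeR's TMM and 1.05 with DESeq2's median of ratios, which both bring the median name close to 1. From 98 to 161 d ssc-miR-145-5p was past the fold limit with TMM (2.28), with the median of ratios (2.30) and with ssc-miR-133a-3p left out of the total (2.11), but not with the listed reads or with porcine mature reads (1.91). The names past the limit split with the scaling too. From 63 to 98 d 30 were higher and 10 lower with the listed reads, 14 and 24 with TMM, 14 and 22 with the median of ratios, and 21 and 17 both with porcine mature reads and without ssc-miR-133a-3p. For 98 and 161 d the split was 8 higher and 24 lower with the listed reads, 14 and 12 with TMM, 15 and 12 with the median of ratios, and 11 and 20 without ssc-miR-133a-3p.

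**Figure D2:**
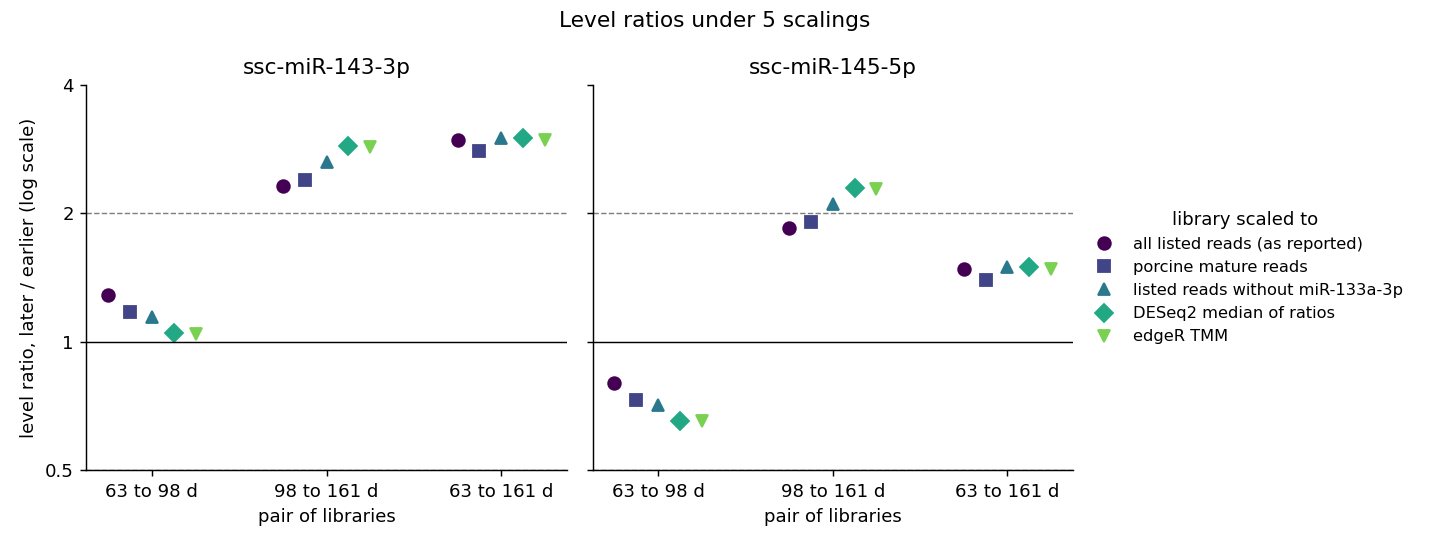
Ratio of levels, later over earlier library, of ssc-miR-143-3p (left) and ssc-miR-145-5p (right) for the 3 pairs of ages on a log axis, with 1 symbol for each scaling of the libraries. The solid line marks a ratio of 1 and the dashed lines the fold limit. ssc-miR-143-3p lies above 2 from 98 to 161 d and from 63 to 161 d with each of the 5 scalings, whereas ssc-miR-145-5p lies on both sides of 2 from 98 to 161 d.

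Ratios between arms within 1 library need no scaling. Reads of ssc-miR-143-3p exceeded those of ssc-miR-145-5p 19.2 times (17.8 to 20.8), 30.8 times (28.8 to 32.9) and 38.5 times (36.6 to 40.5) in the libraries of 63, 98 and 161 d. The intervals of the 3 libraries did not overlap. The ratio changed by a factor of 1.60 (1.44 to 1.78) from 63 to 98 d, 1.25 (1.15 to 1.36) from 98 to 161 d and 2.01 (1.83 to 2.20) from 63 to 161 d. Both hairpins together held 0.941%, 1.19% and 2.73% of the listed reads, of which 94.8%, 96.5% and 97.3% came from ssc-mir-143.

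The size of this ratio depended on which reads were counted. Over reads without mapping error it was 10.9, 16.7 and 22.5 at 63, 98 and 161 d, and over copies of the representative read 10.2, 15.6 and 19.4. The factor from 63 to 161 d was 2.07 and 1.91, respectively, and the order of the ages stayed as above. Ligation and amplification favour some small RNAs over others, so a ratio between different sequences in 1 library is not a ratio of molecules. Its change between libraries compares the same sequences.

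The arms of each hairpin were compared in the same way. In ssc-mir-143 the 3p arm outnumbered the 5p arm 687 times (440 to 1142), 1108 times (750 to 1712) and 826 times (656 to 1055) in the libraries of 63, 98 and 161 d. The 3 intervals overlapped, and the factors of change, 1.61 (0.84 to 3.05), 0.75 (0.45 to 1.19) and 1.20 (0.68 to 2.01) for 63 to 98, 98 to 161 and 63 to 161 d, did not differ detectably from 1 at this depth. Over copies of the representative read the ratio was 1248 at 63 d, and over reads without mapping error it was 1750 at 98 d. Of the 40, 46 and 46 porcine hairpins with both arms listed and at least 100 reads, ssc-mir-143 was among those with the largest arm ratios at each age. Its exact order was not resolved, since miR-499 at 63 d (757, from 2 reads of the minor arm) and miR-10a at 161 d (827, 473 to 1600) had intervals that overlapped its own.

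In ssc-mir-145 the 5p arm outnumbered the 3p arm 21.3 times (14.9 to 31.3), 9.28 times (7.52 to 11.6) and 14.6 times (12.0 to 17.9) in the same order of libraries. The ratio was thus lowest at 98 d. With the listed reads, the level ratio from 63 to 98 d was 0.80 for the 5p arm and 1.84 for the 3p arm. The arm ratio changed by a factor of 0.44 (0.28 to 0.67) from 63 to 98 d and 1.57 (1.16 to 2.11) from 98 to 161 d. Its factor from 63 to 161 d, 0.69 (0.44 to 1.04), had an interval that included 1. Over copies of the representative read the ratio was 44.6, 12.5 and 15.9 at the 3 ages. These ratios lay near the middle of the porcine hairpins, with ranks of 18, 28 and 25 and medians of 16.9, 14.3 and 15.2.

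**Figure D3:**
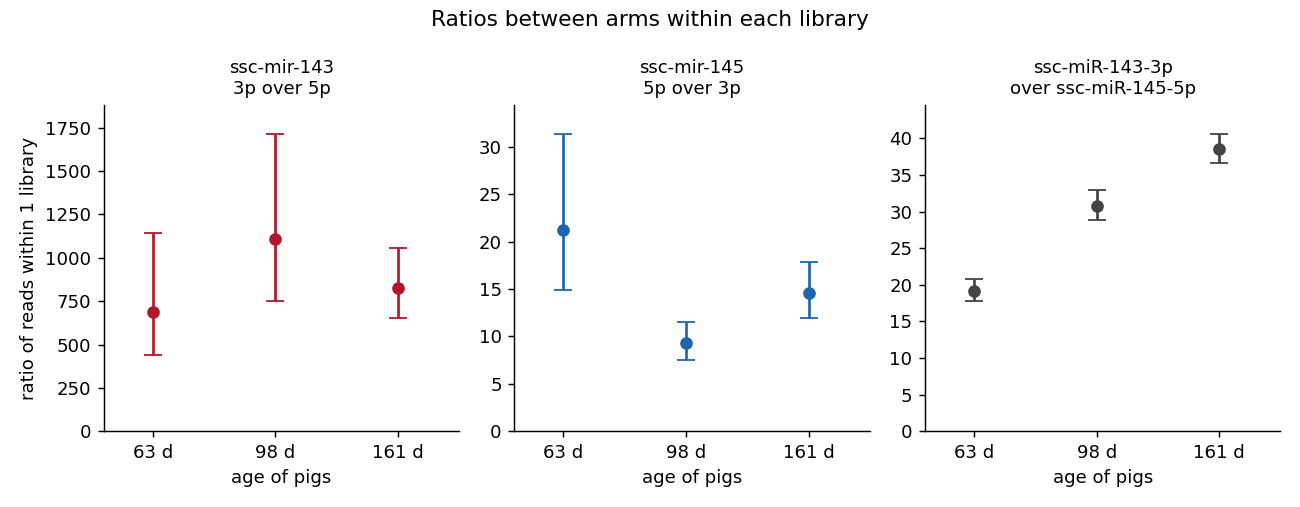
Ratios of reads within 1 library at 63, 98 and 161 d, for the 3p over the 5p arm of ssc-mir-143 (left), the 5p over the 3p arm of ssc-mir-145 (middle) and ssc-miR-143-3p over ssc-miR-145-5p (right), each on its own linear axis from 0. Bars are exact 95% intervals for counting error. The ratio on the right goes from 19.2 to 38.5 without overlap, the one in the middle is lowest at 98 d, and the intervals on the left overlap.

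The ends of the reads set the arms apart. The representative read, the sequence the files give for the reads of an arm, is shown with the seed in capitals for the 3 arms that had the same one at every age.
ssc-miR-143-3p, all 3 ages: tGAGATGAagcactgtagctct
ssc-miR-145-5p, all 3 ages: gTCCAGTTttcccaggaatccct
ssc-miR-145-3p, all 3 ages: aTTCCTGGaaatactgttctt
The read of ssc-miR-143-3p was 22 bases long, the known sequence of 21 bases with 1 further base at its 3′ end. This base differed from the hairpin by G22T, counted from 1 at the 5′ end of the read with the base of the hairpin first. The read of ssc-miR-145-5p was the known sequence without its last base and matched the hairpin.

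The read of ssc-miR-145-3p began 2 bases downstream of the known start. Its bases 2 to 8 were therefore TTCCTGG and not GATTCCT. It made up 34.4%, 54.6% and 63.2% of the reads of that arm at 63, 98 and 161 d, with 11, 53 and 67 copies. Among porcine names with at least 10 reads, a shifted start of the representative read was given for 16 of 226 names (7.08%) at 63 d, 15 of 237 (6.33%) at 98 d and 18 of 233 (7.73%) at 161 d, this arm included.

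ssc-miR-143-5p had a different representative read at each age. At 63 d it was 3 bases longer than the known sequence and ended in A24T, at 98 d it was 1 base longer and ended in T22A, and at 161 d it was 1 base longer without a mismatch. These reads had 4, 7 and 20 copies.

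Reads with mapping error, those that do not match the hairpin at every base, made up 49.6% (48.8 to 50.5), 49.4% (48.8 to 50.0) and 46.9% (46.5 to 47.3) of the reads of ssc-miR-143-3p at the 3 ages. The 161 d share lay below the other two, with an odds ratio of 0.90 (0.88 to 0.93) against 98 d. The representative read with G22T alone held 77.0%, 75.9% and 74.3% of these reads. It held 38.2%, 37.5% and 34.9% of all reads of the arm.

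The other arms were compared with these shares. In ssc-miR-145-5p reads with mapping error were 11.3% (9.04 to 13.9), 6.67% (5.13 to 8.50) and 9.20% (7.81 to 10.8), lowest at 98 d, with an odds ratio of 0.56 (0.39 to 0.81) against 63 d. ssc-miR-145-3p had 31.3% (16.1 to 50.0), 28.9% (20.1 to 39.0) and 17.0% (10.4 to 25.5), with intervals that overlapped. In ssc-miR-143-5p they were 63.2% (38.4 to 83.7), 68.0% (46.5 to 85.1) and 55.6% (43.4 to 67.3), also with overlap.

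The share of ssc-miR-143-3p was among the highest of porcine miRNAs. Over the 81, 112 and 100 porcine names with at least 500 reads, the median share was 14.4%, 13.6% and 14.5%, and ssc-miR-143-3p ranked 6th, 8th and 7th from the top. ssc-miR-145-5p ranked 51st, 98th and 76th. The last base was the only mismatch in the representative read of 3, 4 and 3 of these names. They were ssc-miR-143-3p, ssc-miR-23b and ssc-miR-24-3p at every age and ssc-miR-331-3p at 98 d, and this base was a T in each. Representative reads with more mismatches were left out of this count. Over all listed reads the share with mapping error was 17.2%, 18.5% and 17.6%.

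**Figure D4:**
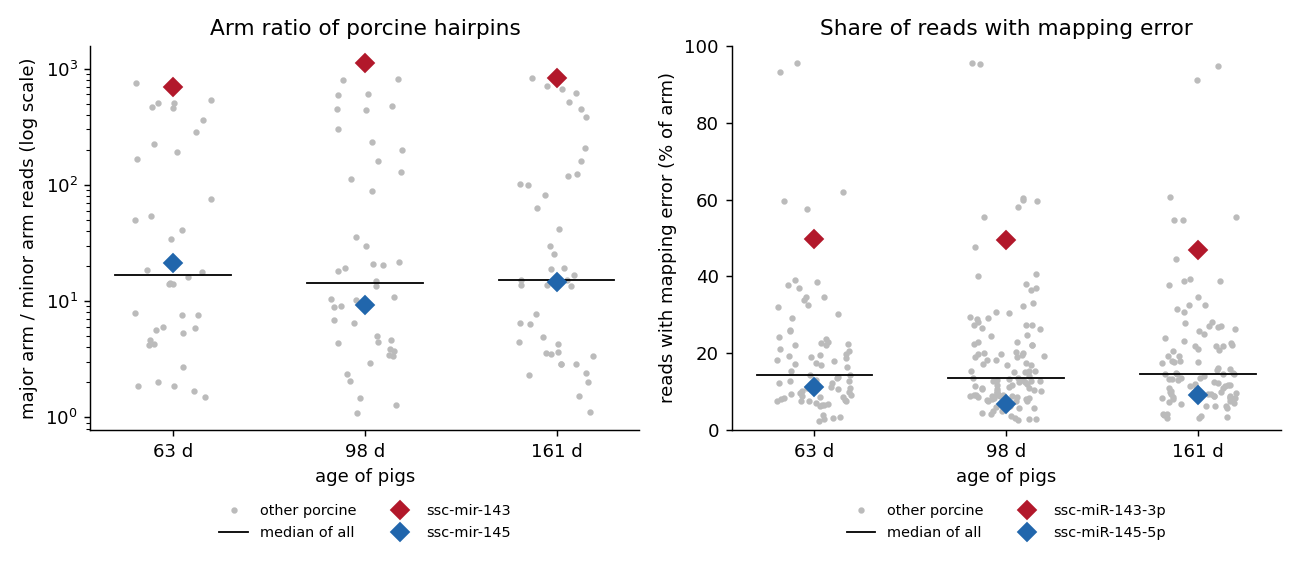
Left, reads of the major over the minor arm of porcine hairpins with at least 100 reads, on a log axis. Right, reads with mapping error as a percentage of all reads of the name, for porcine names with at least 500 reads. Grey points are other miRNAs, black lines the medians of all, and diamonds the cluster; ssc-mir-143 lies among the highest on the left and its 3p arm near 50% on the right, while ssc-mir-145 lies near the median on the left and its 5p arm below it on the right.

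Markers of other cell types were set beside the cluster. The endothelial miR-126 (2 arms) summed to 5833, 9769 and 6759 RPM at 63, 98 and 161 d. The mesenchymal miR-199a, miR-199b and miR-214 (4 names) summed to 3254, 4343 and 3357 RPM. The red blood cell miRNAs miR-144 and miR-451 summed to 808, 1491 and 1069 RPM, and the white blood cell miRNAs miR-142 and miR-150 (3 names) to 1096, 1488 and 985 RPM. Each of these sums was highest at 98 d, and no porcine name of miR-223 was listed.

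Both major arms of the cluster were higher at 161 d than at 98 d. Between these ages none of the 18 marker names with a mean of at least 10 reads passed the fold limit upwards. Of all 234 names, 3.42% did. Past it downwards were 2 of the 18, ssc-miR-206 (0.49) and ssc-miR-142-3p (0.41), beside 10.3% of all names. ssc-miR-133a-3p, the most abundant marker of myofibres, had the highest ratio among the 18, 1.22. The median ratios of the lists were 0.72 (myofibre), 0.69 (endothelium), 0.65 (mesenchymal), 0.64 (red blood cell) and 0.66 (white blood cell), beside 0.81 over all 234 names. In the pair of 63 and 98 d, 4 of the 18 were past the limit upwards, beside 12.8% of all 234 names. These were ssc-miR-1 (2.56), ssc-miR-208b (2.12), ssc-miR-199b-5p (2.11) and ssc-miR-144 (2.26). The medians, in the same order of lists, were 1.43, 1.60, 1.37, 2.04 and 1.44, beside 1.24 over all names. From 63 to 161 d no marker name passed the limit in either direction, beside 18.8% of all names. The medians were 1.02, 1.11, 0.96, 1.29 and 0.62, beside 1.03 over all names. Marker names were counted with the listed reads only, and other scalings were not tried for them. No other marker of smooth muscle was measured, and the share of vessel wall in the samples was not tested.

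**Figure D5:**
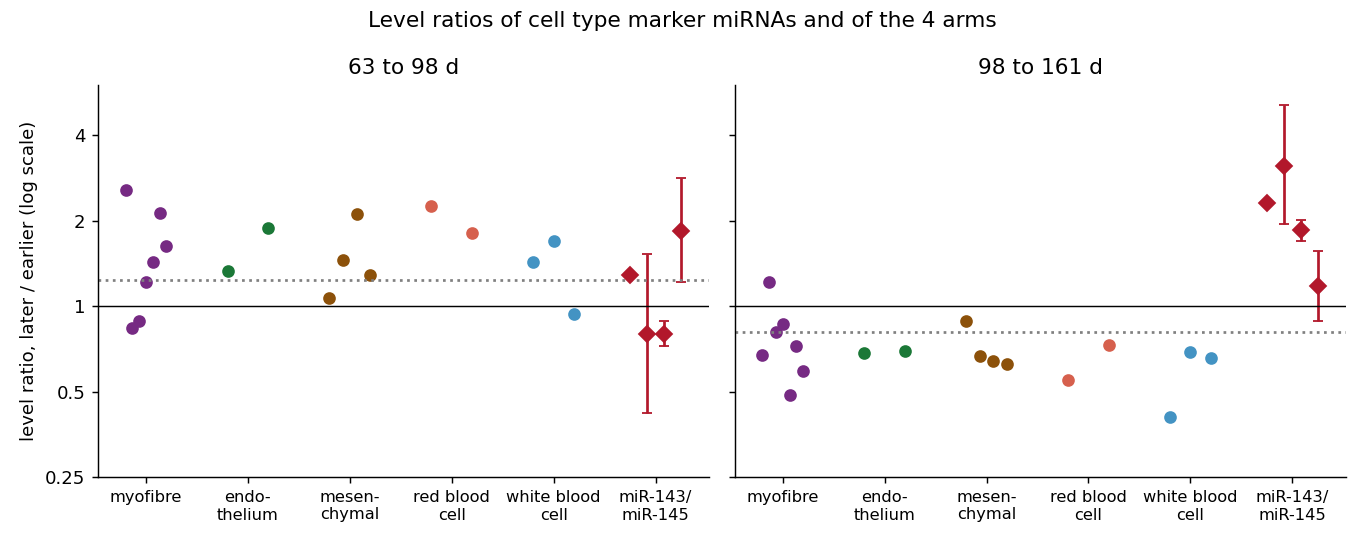
Ratio of levels, later over earlier library on a log axis, of the marker miRNAs of 5 cell types (dots, 1 per name with a mean of at least 10 reads) and of the 4 arms of the cluster (diamonds with exact 95% intervals, in the order ssc-miR-143-3p, ssc-miR-143-5p, ssc-miR-145-5p and ssc-miR-145-3p). The solid line is a ratio of 1 and the dotted line the median of 234 porcine names, 1.24 on the left and 0.81 on the right. From 98 to 161 d all 4 diamonds lie above 1, but the interval of ssc-miR-145-3p (0.89 to 1.57) includes 1. With the listed reads 17 of the 18 dots lie below 1, as does the median of all names.

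The porcine names whose pattern was most like that of each major arm were found over the 3 libraries, as the distance between log2 RPM centred on the mean, among 78 names with at least 500 reads in every library. For ssc-miR-143-3p the nearest was ssc-miR-140-3p, a miRNA known from cartilage, at a distance of 0.42, with 1019, 879 and 2686 RPM. It was followed by ssc-miR-145-5p (0.72), ssc-miR-29a (0.75), ssc-miR-148a-3p (0.81) and ssc-miR-10a-5p (0.92). For ssc-miR-145-5p the nearest was ssc-miR-133a-3p, a miRNA of striated muscle, at 0.47, with 207677, 173743 and 211596 RPM at 1 of its 2 hairpins. Next came ssc-miR-181a (0.49), ssc-miR-29a (0.51), ssc-miR-27a (0.56) and ssc-miR-7134-3p (0.56), and ssc-miR-143-3p was the 15th. With all hairpins summed, ssc-miR-92b-3p (0.56) took the place of ssc-miR-7134-3p. With 3 libraries such a likeness is a description only. ssc-miR-29a, which acts on collagen mRNAs, was the 1 name near to both, with 402, 510 and 628 RPM.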

How the data were processed

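Small RNA of psoas major was sequenced from 3 pools, 1 for each age, and libraries were grouped by the age in their labels. ACGT101-miR 4.2 and miRBase 20.0 are named in the submitters' processing notes. The deposited counts, not normalized, are whole numbers of copies of the read that represents an arm. The deposited expected counts are the reads of all isoforms of an arm, which the authors' pipeline obtained by dividing a read among the hairpins it maps to; a further column leaves out reads with mapping error. The 63 d file has another layout and states other hairpin criteria. The genome build was not given in the sources used here.

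Expected counts were divided by the sum of the file, times 1000000. Each arm of the cluster was listed at 1 hairpin with whole numbers. For other porcine names the hairpin found in most libraries was used, then the first in the file. Shares carry Clopper-Pearson intervals, levels Poisson intervals, ratios conditional binomial intervals and changes of ratios conditional odds ratio intervals, all at 95%. Molecular identifiers are not given, so intervals cover counting error only. The intervals of ratios between libraries were tested on simulated counts with Poisson error only, which cannot show how they hold under other sources of spread. Alternatives were 4 other scalings (TMM of edgeR 4.0.16 and median of ratios of DESeq2 1.42.0, for scaling factors only), 2 other sets of reads and 3 other filters or counting rules. Named miRNAs were the 4 arms, the 5 nearest in pattern, the marker lists and names that share a seed. The members and lists were chosen with earlier results of these data known. Software was R 4.3.3 and Python 3.11.15 (scipy 1.17.1, numpy 2.4.6, matplotlib 3.10.9, pandas 2.3.3).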

Additional observations from a re-analysis of the deposited data

How the results depend on the processing

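With each of the other scalings, with reads without mapping error and with copies of the representative read, both major arms kept the direction of their ratios in the 3 pairs. The ratio of ssc-miR-143-5p from 63 to 98 d turned from 0.80 to 1.06 over copies of the representative read, within its interval. That read was a different sequence at each age, with 4 copies at 63 d and 7 at 98 d, so the 1.06 does not compare the same sequence. For ssc-miR-143-3p from 63 to 98 d the ratio was 1.04 with TMM, 1.05 with the median of ratios, 1.17 with porcine mature reads and 1.14 without ssc-miR-133a-3p. Between 98 and 161 d it was 2.86, 2.88, 2.39 and 2.64 with the same scalings, 2.40 over reads without mapping error and 2.15 over copies of the representative read. From 63 to 161 d it was 2.81 with porcine mature reads, 3.15 over reads without mapping error and 2.71 over copies. For ssc-miR-145-5p from 63 to 98 d the ratio was 0.65 with TMM, 0.65 with the median of ratios and 0.71 without ssc-miR-133a-3p, and from 98 to 161 d it was 2.28, 2.30 and 2.11. The arm ratio of ssc-mir-143 was 1248 at 63 d over copies and 1750 at 98 d over reads without mapping error, and that of ssc-mir-145 was 44.6 at 63 d over copies, and 12.2 at 98 d over reads without mapping error and 12.5 over copies. ssc-miR-143-3p over ssc-miR-145-5p was 10.9, 16.7 and 22.5 over reads without mapping error, and 10.2, 15.6 and 19.4 over copies. With a mean of at least 100 reads, which leaves fewer names to count, 20, 17 and 23 porcine names were past the fold limit in the 3 pairs, against 40, 32 and 44. Of 117 alternative values, 82 stayed within the interval or limit of the reported value, where the limit applied to counts of names. Among them were most level ratios of the minor arms, whose few reads gave wide intervals. For ssc-miR-143-3p every alternative ratio from 98 to 161 d left its narrow interval. So did every alternative ratio of ssc-miR-143-3p to ssc-miR-145-5p within a library. The turn of ssc-miR-143-5p was the 1 change of direction. Where no construction above shows the reason for a change, the cause was not tested. The minor arms, with 19 to 106 reads per library, limit what can be seen of the arm ratios, and 1 library per age leaves the spread between pigs unknown. No paired analysis was possible because each age had 1 library.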
